A study of Mus musculus with 47 samples.

Results

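RNA of mouse T-cell precursors grown on stroma that presents the Notch ligand DL4 was compared with RNA of precursors grown on stroma that presents DL1, within 2 pairs of cultures. The 4 libraries were chosen from the 47 of the series because each pair shared its title date, genotype, Cre treatment and IL-7 regime and differed in the ligand. All 4 came from fetal liver precursors of embryonic day 13.5 that received a Cre retrovirus and were then cultured with Flt3L and IL-7 on OP9 cells, a bone marrow stromal line of mouse origin. IL-7 was lowered at the first feeding of these early cultures, a practice that the protocols say was later given up because it affected how many live cells were recovered and the quality of their RNA. The knockout pair held 1 DL4 and 1 DL1 library of cells with floxed Bcl11b, a zinc-finger gene of T-lineage commitment, and the control pair held 1 DL4 and 1 DL1 library of C57BL/6 (B6) cells. The protocols allow each genotype with or without a ROSA26R-YFP reporter of Cre activity, and which form these cultures had is not stated in the sources used here. Knockout cells were titled DN2a (staged DN2) and control cells DN2b, 2 successive double-negative stages of thymocyte development, so that genotype, stage and title date change together between the pairs. The label of the knockout DL4 library does not say that the cells were sorted, whereas the labels of the other 3 libraries do, and both knockout titles name the DN2a stage. The protocols give culture times of 8.5 to 14 days, with no day for these 4 libraries.

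Delta-like ligands on a neighbouring cell bind Notch receptors on the precursor, ADAM proteases and gamma-secretase release the intracellular part of the receptor, and that part joins the DNA-binding protein RBPJ to switch on targets such as Dtx1, Hes1 and Ptcra. Notch signalling is required for entry into the T lineage, DL4 is the ligand of the thymic epithelium, and both ligands drive T-cell development when presented by OP9 cells.

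The values are FPKM (fragments per kilobase of transcript, scaled to library size) after a batch adjustment by the authors, with a floor of 0.1 FPKM. Column totals of the 4 libraries ran from 660731 to 787706 FPKM, 12247 to 12764 genes reached 1 FPKM, and 2.05% to 4.39% of genes stood at the floor. FPKM values do not carry the sequencing depth, which is unknown, and no counting intervals can be had. Bcl11b was 26.5 FPKM on DL4 and 23.6 on DL1 in the knockout pair, and 80.7 on DL4 and 54.5 on DL1 in the control pair. Transcript thus remained in the knockout libraries, below both controls of the other date but above the 16.9 FPKM of the control DL1 library of their own date, and the deleted stretch of the gene is not named in the labels. The T-lineage surface genes Cd3e, Thy1 and Il2ra were at least 39.7 FPKM in all 4 libraries, and Kit, a marker of the DN2 gate, ran from 14.3 to 93.8 FPKM, higher in both knockout libraries. The genes Cd4, Cd8a and Cd8b1, which double-negative cells should lack, ran from 17.15 to 29.75 FPKM in both knockout libraries and stood at the floor in both control libraries. They followed the title date, since the control DL1 library of the knockout pair's date held 19.6 to 35.5 FPKM and the knockout DL4 library of the control pair's date stood at the floor. Their levels differed by at most 0.03 on the log2 scale between DL4 and DL1 within a pair.

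Few genes differed between the stromas, and the 2 pairs did not share most of those that did. Differences are DL4 minus DL1 on log2(FPKM + 1), which understates the change of low genes, and 12654 genes with a mean of at least 1 FPKM over the 4 libraries were considered. In the knockout pair 175 genes were at least 2-fold higher on DL4, 1.38% of those considered, and 70 were at least 2-fold lower, 0.553%. In the control pair 227 genes were at least 2-fold higher, 1.79%, and 143 at least 2-fold lower, 1.13%. A single pair has no replicate, so these counts carry no test. The median absolute difference over all genes was 0.15 in the knockout pair and 0.27 in the control pair.

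The distance between libraries of 1 group from the other date was larger than that between stromas. The control DL1 library of the pair and the control DL1 library of the knockout pair's date, which had the same stroma and IL-7 labels, were 2-fold or more apart for 1524 genes (12.0%). The knockout DL4 libraries of the 2 dates were 2-fold or more apart for 1272 genes (10.1%). Their median absolute differences were 0.42 and 0.39. Stroma therefore separated the libraries less than the date did, in both genotypes. The column headers of the table carry 1 mark within each pair and different marks for the same-group libraries of the other date, and what these marks stand for is not given in the sources used here.

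**Figure D1:**
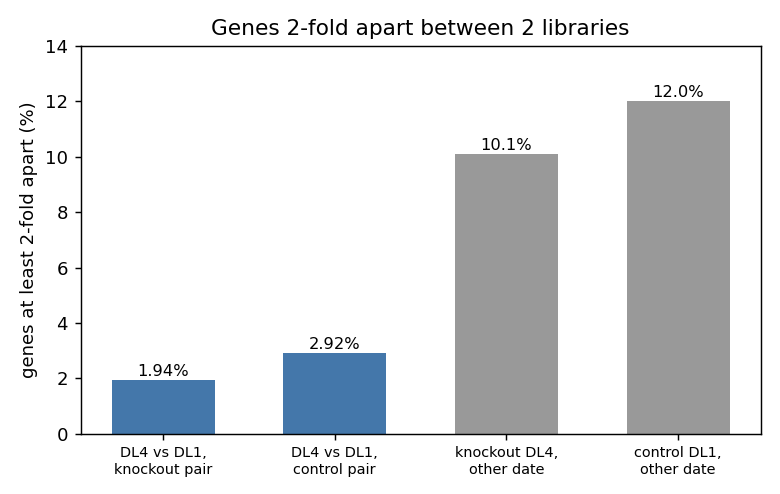
Share of the 12654 genes (y axis, percent) that were at least 2-fold apart between 2 libraries, on log2(FPKM + 1). The blue bars compare DL4 with DL1 within the knockout pair (1.94%) and the control pair (2.92%), and the grey bars compare libraries of 1 genotype and stroma between the 2 dates (10.1% and 12.0%).

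The pairs share no library, and across the 12654 genes their differences had a Pearson correlation of -0.006 and a Spearman correlation of -0.054, given as a description because genes are not independent replicates. The differences had 1 sign in both pairs for 47.0% of genes. Subtracting the median difference of each pair, 0.02 in the knockout pair and 0.10 in the control pair, left this at 47.1%. At any size 3861 genes (30.5%) were higher on DL4 in both pairs and 2069 (16.4%) lower in both, and these shares are the background for the gene lists below. A further 15 genes were at least 2-fold apart in both pairs with opposite signs.

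**Figure D2:**
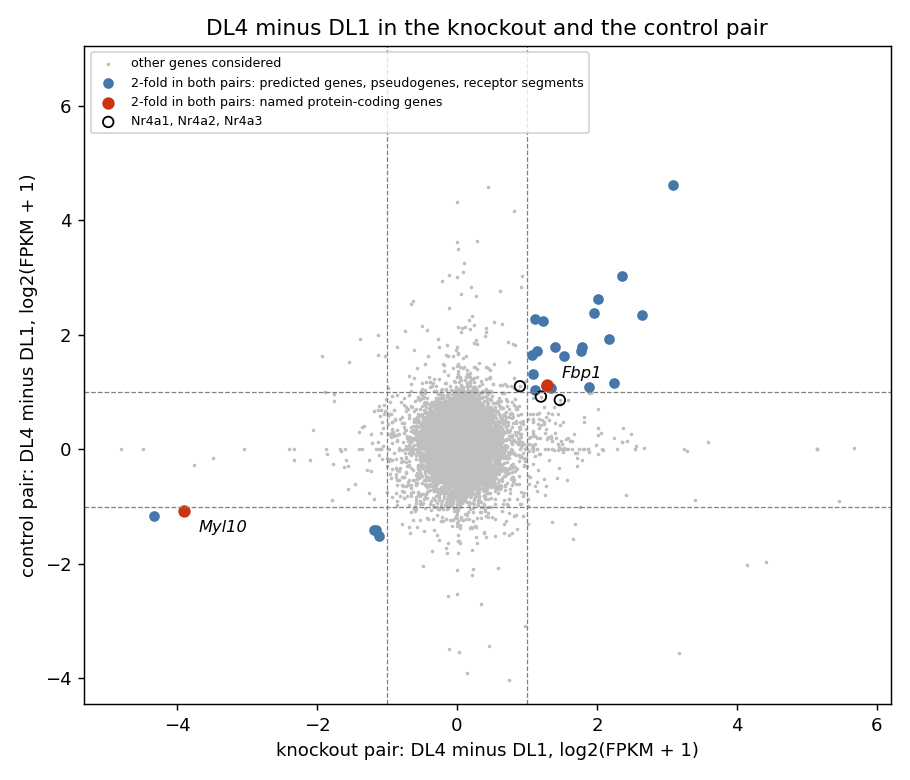
Each point is 1 of 12654 genes, with DL4 minus DL1 on log2(FPKM + 1) in the knockout pair on the x axis and in the control pair on the y axis; dashed lines mark 2-fold. Most genes lie near 0 on one axis or both, 26 lie beyond 2-fold in the same direction on both (coloured), Myl10 and Fbp1 are the named protein-coding genes among them, and the open circles of Nr4a1, Nr4a2 and Nr4a3 lie close to both 2-fold lines.

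Both pairs agreed at 2-fold or more for 26 genes, of which 21 were higher on DL4 (0.166% of genes considered) and 5 lower (0.0395%). Of the 26, 22 carry the symbol of a predicted gene or a pseudogene, against 11.4% of all genes considered, and 1 more is an unnamed entry called after a genomic clone. Pseudogenes of ribosomal proteins and other abundant genes share reads with near-identical copies, so that their FPKM is uncertain. The gene Trdj2 is a joining segment of the T-cell receptor delta locus, 26.6 FPKM on DL4 and 9.47 on DL1 in the knockout pair and 10.7 and 2.40 in the control pair. The control DL1 library of the other date held 18.9 FPKM of Trdj2, above the control DL4 library of the pair. The knockout DL4 library of the other date held 5.13 FPKM, below the knockout DL1 library of the pair. In 11 of the 26 genes at least 1 library stood at the floor. The difference was larger in both pairs than both same-group date differences for 10 of the 26, which include neither Myl10 nor Fbp1.

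The paired fit with limma, with pair as a block, called 9 genes higher on DL4 at an adjusted p under 0.05 (0.0711% of 12654) and 0 lower; 593 genes had an unadjusted p under 0.05. The fit has 1 residual degree of freedom beside 9.26 prior degrees of freedom taken from all genes. Its SEs and p-values thus rest mostly on a spread pooled over genes, and they cover these 4 libraries alone. All 9 calls were predicted genes or pseudogenes. The pseudogene Rpl7a-ps11 was 157.2 FPKM on DL4 and 17.5 on DL1 in the knockout pair, and 25.9 on DL4 and at the floor on DL1 in the control pair (mean difference 3.85, SE 0.33, limma adjusted p = 0.00331). Its level in the control DL1 library of the other date was 47.7 FPKM, above the control DL4 library of the pair, and the knockout DL4 library of the other date stood at the floor. The predicted gene Gm5900 was 5.055 FPKM on DL4 and 0.762 on DL1 in the knockout pair, and 4.09 and 0.483 in the control pair, a difference of 1.78 in each pair. Its level in the same-group libraries of the other date was 4.46 FPKM on DL4 and at the floor on DL1, so that the 3 DL4 values of the 2 dates lay above the 3 DL1 values. The third knockout DL4 library with reduced IL-7, of another title date, held 0.221 FPKM, below 2 of the 3 DL1 libraries. Gm5900 was also the 1 gene called in the date-adjusted fit described below.

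Myl10, which encodes a regulatory light chain of myosin known from precursor lymphocytes, was lower on DL4 in both pairs. It stood at the floor on DL4 and at 15.4 FPKM on DL1 in the knockout pair, and was 133 FPKM on DL4 and 281 on DL1 in the control pair. The knockout values are far below the control values, and within each genotype DL1 was the higher. The differences were -3.90 and -1.07, with a mean of -2.49 (SE 0.49) that was not called in the paired fit (limma adjusted p = 0.209). The knockout DL4 library of the other date held 35.0 FPKM, above the knockout DL1 library of the pair, and the third knockout DL4 library with reduced IL-7 stood at the floor. In the 18 fetal liver libraries with standard IL-7, which the pairs do not use, all 3 knockout DL4 libraries stood at the floor and the 7 knockout DL1 libraries ran from 32.3 to 89.5 FPKM. The 2 control DL4 libraries held 32.8 and 46.1 FPKM and the 6 control DL1 libraries ran from 65.5 to 168 FPKM. Stroma groups did not overlap in either genotype, with a difference of -3.93 (limma adjusted p = 0.000121), but stroma and title year cannot be told apart in these 18 libraries.

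Fbp1, which encodes the gluconeogenic enzyme fructose bisphosphatase, was higher on DL4 in both pairs at low levels. It was 2.32 FPKM on DL4 and 0.3535 on DL1 in the knockout pair, and 3.12 and 0.902 in the control pair. Both DL4 values lay above both DL1 values, and the other 2 knockout DL4 libraries with reduced IL-7 (7.45 and 3.33 FPKM) lay above the control DL1 library of the other date (0.852 FPKM) as well. Over the 7 libraries with reduced IL-7, 148 genes (1.17%) had every DL4 value above every DL1 value. Fbp1 itself was picked by its differences in the 2 pairs. The differences were 1.29 and 1.12, and the mean of 1.20 (SE 0.23) was not called (limma adjusted p = 0.209). In the standard IL-7 libraries the direction was the opposite: Fbp1 was lower on DL4 by a difference of -1.75 (limma adjusted p = 0.0216), with 1 control DL4 library at the floor and the other at 0.405 FPKM against 1.97 to 14.5 in the 6 control DL1 libraries.

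**Figure D3:**
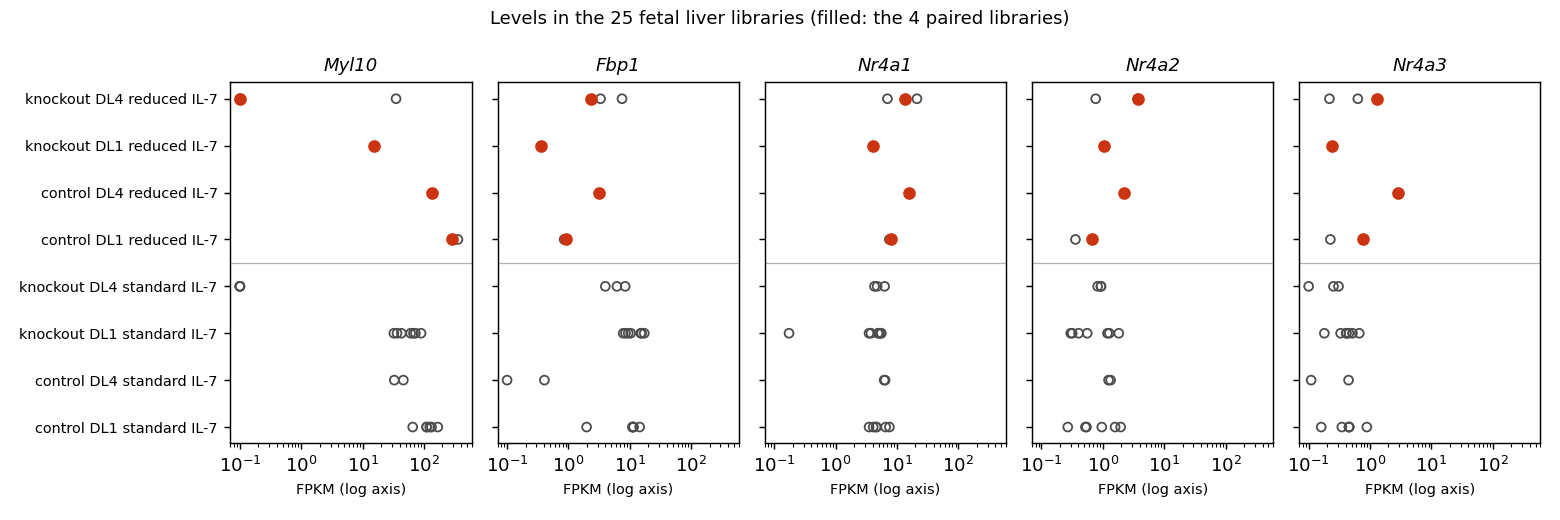
FPKM on a log axis (x) of Myl10, Fbp1, Nr4a1, Nr4a2 and Nr4a3 in the 25 fetal liver libraries with Cre retrovirus, 1 point per library, by genotype, stroma and IL-7 (y). Filled points are the 4 paired libraries; in each genotype the paired DL4 point lies left of the DL1 point for Myl10 and right of it for the other 4 genes, while among standard IL-7 libraries the Nr4a genes overlap between stromas.

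The 3 Nr4a genes were higher on DL4 in both pairs. They encode orphan nuclear receptors that lymphocytes induce within a short time of antigen receptor signalling, and they were picked out after their values were seen. Nr4a1 was 13.25 FPKM on DL4 and 4.14 on DL1 in the knockout pair, and 15.5 and 8.09 in the control pair. Nr4a2 was 3.715 and 1.05 FPKM in the knockout pair, and 2.18 and 0.675 in the control pair. Nr4a3 was 1.30 and 0.2375 FPKM in the knockout pair, and 2.81 and 0.781 in the control pair. For each gene both DL4 values lay above both DL1 values, and the share of all genes with that order in the 4 libraries was not counted. With the same-group libraries of the other date added, which hold 1 more knockout DL4 and 1 more control DL1 library, the 3 DL4 values lay above the 3 DL1 values for Nr4a1 and Nr4a2, and Nr4a3 overlapped. Among all genes considered, 279 (2.2%) had their 3 DL4 values above their 3 DL1 values and 119 (0.94%) below; knockout cells made 2 of the 3 DL4 libraries and 1 of the 3 DL1 libraries. The third knockout DL4 library with reduced IL-7, from another title date and added after seeing the data, held 6.98, 0.766 and 0.218 FPKM of Nr4a1, Nr4a2 and Nr4a3. With it the stromas overlapped for all 3 genes: its Nr4a1 lay below both control DL1 libraries, its Nr4a2 below the knockout DL1 library and its Nr4a3 below every DL1 library with reduced IL-7. Over these 7 libraries 148 genes (1.17%) had every DL4 value above every DL1 value and 54 (0.427%) below. The differences were 1.47 and 0.86 for Nr4a1, 1.20 and 0.92 for Nr4a2, and 0.90 and 1.10 for Nr4a3, the knockout pair first. The largest differences between same-group libraries of the 2 dates were 0.63, 0.30 and 0.54, below these. With the third knockout DL4 library counted, knockout DL4 libraries differed by up to 1.47 for Nr4a1, 1.42 for Nr4a2 and 0.92 for Nr4a3, so the stroma differences of Nr4a1 and Nr4a2 did not exceed the spread within that group to 2 decimals, and that of Nr4a3 was larger in the control pair alone. None was called in the paired fit (limma adjusted p = 0.346, 0.385 and 0.416). With standard IL-7, Nr4a1 differed by 0.36 (limma adjusted p = 0.858), and its control DL4 libraries (6.18 and 6.40 FPKM) lay within the 3.50 to 7.52 FPKM of the control DL1 libraries. Nr4a2 overlapped there too, with medians of 0.929 FPKM on DL4 and 0.557 on DL1 in knockout cells and 1.29 and 0.752 in control cells. Nr4a3 had the lower median on DL4 in both genotypes, 0.254 against 0.41 FPKM in knockout cells and 0.278 against 0.455 in control cells, with overlapping ranges.

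The upstream stretches of the 3 Nr4a genes are shown because the genes were higher together and because Nr4a promoters are a textbook case of cyclic AMP response elements, which CREB-family factors bind and whose core site is TGACG. Capitals mark TGACG and its reverse complement, as found in the 250 bases before each gene's start (RefSeq, GRCm38.p6; Nr4a1 at chr15:101266596-101266845 on the + strand, Nr4a2 at chr2:57124004-57124253 on the - strand, Nr4a3 at chr4:48045055-48045304 on the + strand).
Nr4a1: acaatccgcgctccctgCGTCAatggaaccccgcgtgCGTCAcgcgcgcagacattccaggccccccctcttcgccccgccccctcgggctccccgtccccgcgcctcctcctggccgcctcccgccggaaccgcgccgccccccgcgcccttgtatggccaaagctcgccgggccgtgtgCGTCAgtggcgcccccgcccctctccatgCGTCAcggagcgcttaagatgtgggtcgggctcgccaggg
Nr4a2: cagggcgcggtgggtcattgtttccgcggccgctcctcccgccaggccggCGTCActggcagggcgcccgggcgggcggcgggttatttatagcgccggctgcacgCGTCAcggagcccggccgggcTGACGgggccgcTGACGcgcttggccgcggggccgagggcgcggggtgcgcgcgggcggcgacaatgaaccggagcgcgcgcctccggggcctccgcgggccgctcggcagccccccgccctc
Nr4a3: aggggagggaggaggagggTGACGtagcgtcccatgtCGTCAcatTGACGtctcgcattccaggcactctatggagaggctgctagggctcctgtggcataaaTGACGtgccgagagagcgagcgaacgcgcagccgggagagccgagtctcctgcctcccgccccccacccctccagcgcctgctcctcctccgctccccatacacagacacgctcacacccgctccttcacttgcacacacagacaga
Each stretch holds 4 copies with no overlap between them, all in reverse complement in Nr4a1, 2 in each direction in Nr4a2, and 3 as written with 1 in reverse complement in Nr4a3. Of the 32851 RefSeq promoter windows of 300 bases, 20.8% hold at least 1 copy on either strand and 0.231% hold 4 or more. A match of letters is a description and no evidence of binding in these cells.

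Below 2-fold, more genes agreed. At 1.5-fold or more, 92 genes were higher on DL4 in both pairs (0.727%) and 43 lower in both (0.34%); 35 of these are named protein-coding genes. Among genes with a mean of at least 5 FPKM the largest agreement, ranked by the smaller of the 2 differences, was in Hist1h2an (0.91 and 2.84), a histone gene with near-identical copies that can share its reads, and in Nr4a1. Next came Eif2ak3, the endoplasmic reticulum stress kinase PERK, at 17.1 FPKM on DL4 and 9.35 on DL1 in the knockout pair and 19.4 and 10.98 in the control pair (0.81 and 0.77). Both its DL4 values lay above both DL1 values. Polr2b, a subunit of RNA polymerase II, was 10.8 and 3.99 FPKM, then 7.28 and 3.98 (1.25 and 0.73). Dusp10, a phosphatase of stress-activated MAP kinases, was 10.0 and 5.09 FPKM, then 9.85 and 5.62 (0.86 and 0.71), and the control DL1 and knockout DL4 libraries of the other date held 5.15 and 9.895 FPKM. Dusp10 thus stood near 10 FPKM in all 3 DL4 libraries and between 5.09 and 5.62 FPKM in all 3 DL1 libraries. The 3 DL4 values also lay above the 3 DL1 values for Hist1h2an, Nr4a1, Eif2ak3 and Polr2b, so for 5 of the 12 higher genes named here (2.2% of all genes). With the third knockout DL4 library 3 remained apart, Hist1h2an, Polr2b and Dusp10 (1.17% of all genes), while Eif2ak3 held 9.40 FPKM there, below the control DL1 library of the pair. The 12 genes were chosen by their differences in the 2 pairs, which supply most of these libraries. The shares of all genes are therefore no expectation for them.

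Ccr9, the receptor for the thymic chemokine CCL25, was 40.0 FPKM on DL4 and 15.7 on DL1 in the knockout pair and 14.7 and 9.09 in the control pair (1.30 and 0.63). Here the groups overlap across genotypes, since the knockout DL1 value lies above the control DL4 value. Adnp, a homeobox chromatin regulator (1.04 and 0.62), Sik1, a salt-inducible kinase (0.64 and 0.72), Rhoq, a small GTPase (0.63 and 0.72), Sp100, a nuclear body protein (0.63 and 0.84), Hist1h2bb (0.71 and 0.75) and Sec22c, a vesicle transport protein (0.59 and 0.84), complete the 12 higher genes. Same-group libraries of the 2 dates differed by more than both stroma differences for Sp100 (-1.68 on control DL1, -2.27 on knockout DL4) and Sik1 (1.34 on control DL1). The same held on knockout DL4 for Hist1h2bb (-1.64) and Adnp (-1.21). In the rest of the 12 no date difference exceeded both stroma differences. None of the 12 was called in the paired fit (limma adjusted p from 0.268 for Hist1h2an to 0.826 for Sik1). At standard IL-7 Hist1h2an (-0.11), Hist1h2bb (-0.33), Sik1 (-0.24), Sp100 (-0.48), Adnp (-0.06) and Sec22c (-0.11) were lower on DL4. Eif2ak3 differed by 0.0 there and the rest of the 12 were higher. None of the 12 was called in those libraries (lowest limma adjusted p 0.768, for Polr2b).

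After Myl10, the named gene ranked next among those lower on DL4 was another myosin light chain gene, Mylpf, followed by Dhrs3. Mylpf, the fast skeletal regulatory light chain, was 4.52 FPKM on DL4 and 9.105 on DL1 in the knockout pair and 9.47 and 16.9 in the control pair (-0.87 and -0.77). Dhrs3, a retinaldehyde reductase, was 1.82 and 5.75 FPKM, then 9.45 and 16.75 (-1.26 and -0.76). For both genes the control DL4 value lay above the knockout DL1 value, so that the order held within each pair and not across them. Rps16, a ribosomal protein gene with many pseudogene copies, was 693.5 and 1093 FPKM, then 1612 and 2501 (-0.66 and -0.63). The others were Sytl1, a vesicle trafficking protein (-0.65 and -0.67), Dcxr, a carbonyl reductase (-0.62 and -0.74), Oaz2, an inhibitor of ornithine decarboxylase (-0.58 and -0.59), Lars2, the mitochondrial leucyl-tRNA synthetase (-0.70 and -0.57), Acbd4 (-0.57 and -0.59), Acrbp (-0.56 and -0.79), the adaptor Dok3 (-0.63 and -0.53) and Hint2 (-0.50 and -0.96). Dok3 stood at the floor on DL4 and at 0.593 FPKM on DL1 in the control pair. It passed the level limit through the knockout pair (13.8 and 22.0 FPKM). Lars2 differed by 1.83 between the control DL1 libraries of the 2 dates. The knockout DL4 libraries of the 2 dates differed by 2.05 for Rps16 and 1.61 for Sytl1. Mylpf, Oaz2, Acrbp and Dok3 also had a same-group date difference larger than both stroma differences, and Dhrs3, Dcxr and Acbd4 had none. At standard IL-7 Lars2 (1.51) and Dok3 (0.23) were higher on DL4, neither called (limma adjusted p = 0.457 and 0.929), and the rest of the 12 were lower. Of those lower there, Myl10 alone was called, and the next lowest limma adjusted p was 0.333, for Oaz2. Dcxr alone among the 12 had its 3 DL4 values of the 2 dates below the 3 DL1 values (0.94% of all genes), and it overlapped once the third knockout DL4 library (9.26 FPKM) was added. These 12 too were chosen by their differences in the 2 pairs, so that share is no expectation for them. None of the 12 was called in the paired fit, with limma adjusted p of 0.209 to 1.

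The ligands themselves gave a partial check of the stroma. Dll1, the mouse gene of DL1, was 3.23 FPKM on DL4 and 2.345 on DL1 in the knockout pair, and stood at the floor on DL4 and at 6.22 FPKM on DL1 in the control pair. Dll4 was 0.569 FPKM on DL4 and 0.279 on DL1 in the knockout pair, and 1.16 on DL4 and at the floor on DL1 in the control pair. Both genes thus followed the label in the control pair, and in the knockout pair Dll4 did and Dll1 did not. Other libraries went against the label: the control DL1 library of the other date held 0.326 FPKM of Dll1, below all 3 knockout DL4 libraries with reduced IL-7 (3.23 to 3.77 FPKM). At standard IL-7 the 2 control DL4 libraries held 0.10 and 0.15 FPKM of Dll4 against a median of 0.267 in the 6 control DL1 libraries, whereas the knockout DL4 libraries (0.47 to 1.45 FPKM) lay above the knockout DL1 libraries (0.219 to 0.354 FPKM). The levels are low, and whether the ligand constructs of the stroma carry the transcript measured here is not given in the sources used here. Of 7 ligand genes listed 6 were in the table and 3 passed the filter, Dll1, Jag2 and Dlk1, with 0 higher and 0 lower in both pairs. Dlk1, a relative of the Delta genes with no activating domain, was 186 and 217 FPKM in the knockout pair and at the floor in both control libraries.

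Notch1, Notch2 and Notch3 had small positive differences in both pairs, and none was called (limma adjusted p = 1 for each). Notch1, the main receptor of early T cells, was 67.7 FPKM on DL4 and 48.95 on DL1 in the knockout pair and 159.7 and 120.0 in the control pair (0.46 and 0.41). Notch2 was 11.4 and 8.92 FPKM, then 7.45 and 5.40 (0.32 and 0.40), and Notch3 was 19.4 and 16.4 FPKM, then 56.1 and 45.4 (0.23 and 0.30). Notch4, whose mean lay under the filter, differed by 0.12 and -0.16. These steps were small beside the date: Notch1 differed by 1.74 between the control DL1 libraries of the 2 dates and by -0.84 between the knockout DL4 libraries. Adam17, a protease of the receptor's outer part, differed by 0.52 and 0.48, while Adam10, the main such protease, differed by -0.04 and 0.90. The gamma-secretase subunits Psenen (-0.31 and -0.44) and Aph1a (-0.34 and -0.32) were lower on DL4 in both pairs. The Fringe genes, whose products adjust the receptor's preference among ligands, were not alike in the pairs: Lfng differed by -0.02 and -0.67 and Mfng by 0.28 and -0.41. Of 24 receptor and machinery genes considered, of 25 listed, 11 were higher and 3 lower in both pairs, with medians of 0.12 and 0.24.

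Of 14 Notch target genes considered, of 15 listed, 8 were higher in both pairs and 1 lower, with medians of 0.16 and 0.28 beside 0.02 and 0.10 for all genes; 0 reached 2-fold in both and 0 were called. Dtx1, a Notch-induced ubiquitin ligase, was 17.4 FPKM on DL4 and 14.4 on DL1 in the knockout pair and 37.3 and 21.5 in the control pair (0.25 and 0.77; mean 0.51, SE 0.23, limma adjusted p = 1). Ptcra, which encodes the alpha chain paired with TCR beta before TCR alpha is made, was 19.6 and 17.9 FPKM, then 93.0 and 66.3 (0.12 and 0.48). Hes1, a basic helix-loop-helix repressor, was 23.6 and 20.3 FPKM, then 33.2 and 35.8 (0.21 and -0.11), and its paralog Hes5 was 1.57 and 1.58, then 2.84 and 3.88 (0.00 and -0.35). Nrarp, a feedback inhibitor of Notch, was nearly equal on both stromas, at 35.6 and 35.3 FPKM, then 23.4 and 22.0 (0.01 and 0.09). Its sign was not stable, since quantile normalization gave a mean difference of -0.02. Il2ra, which encodes CD25, was lower on DL4 in the knockout pair (388 and 459.9 FPKM) and higher in the control pair (297 and 220.1 FPKM). Myc (0.19 and 0.27), Hey1 (0.26 and 0.35) and Trib2 (0.19 and 0.46) had small positive differences in both, Gata3 (-0.21 and 0.21) and Tcf7 (0.04 and -0.04) opposite ones, and Heyl differed by 0.08 and 0.00. For most of these genes the gap between the pairs was wider than that between the stromas. Genotype, stage and title date change together between the pairs, so that gap cannot be given to any 1 of them.

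**Figure D4:**
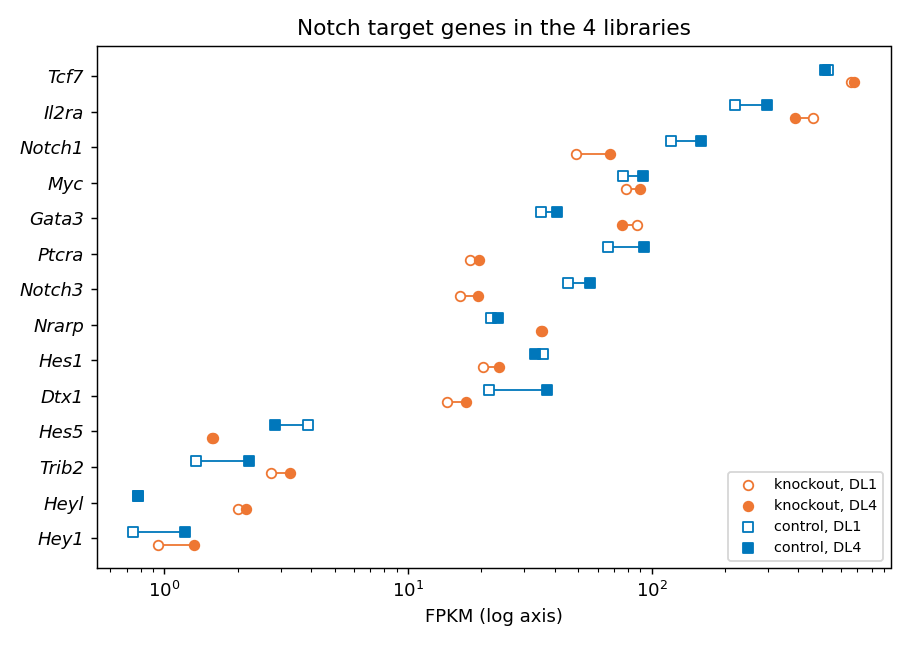
FPKM (x, log axis) of the 14 Notch target genes considered (y) in the 4 libraries; open symbols are DL1, filled symbols DL4, circles the knockout pair and squares the control pair, with a line joining each pair. Dtx1 of the control pair was 21.5 on DL1 and 37.3 on DL4, while Nrarp, Tcf7 and Hes1 differed little between stromas.

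The stretch before the Ptcra start is shown as the 1 with RBPJ letters among the targets whose differences were positive in both pairs and whose window was searched (Dtx1, Notch1, Notch3, Nrarp and Ptcra). The searched window of Hes5, which was not higher on DL4 in either pair, also holds 2 copies. Capitals mark TGGGAA, the core that RBPJ binds, in the 130 bases before the start (RefSeq, GRCm38.p6, chr17:46763713-46763842, - strand).
Ptcra: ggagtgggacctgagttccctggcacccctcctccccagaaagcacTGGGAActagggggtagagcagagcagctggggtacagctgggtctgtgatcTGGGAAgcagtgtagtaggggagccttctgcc
It holds 2 copies as written. Of the 32851 windows, which are 300 bases long, 25.6% hold at least 1 on either strand, and the share with 2 or more was not counted. The windows of Dtx1, Notch1, Notch3 and Nrarp hold none, which says only that these letters are not within 250 bases before and 50 after the annotated start.

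Stromal transcripts were higher on DL1 than on DL4 in the control pair. The 22 stromal markers include collagen, matrix and smooth muscle genes that T cells should lack, beside receptor, adhesion and chemokine genes. Their summed level was 73.3 FPKM on DL4 and 63.3 on DL1 in the knockout pair. In the control pair it was 122 on DL4 and 198 on DL1. The other 21 fetal liver libraries with Cre retrovirus ran from 37.7 to 222 FPKM. Of 15 markers considered, 15 were higher on DL4 in the knockout pair and 1 in the control pair, with medians of 0.10 and -0.91, and 1 was higher and 0 lower in both. Col1a1 was 1.08 FPKM on DL4 and 1.055 on DL1 in the knockout pair and 2.68 and 11.9 in the control pair (0.02 and -1.81). The defining markers Dcn, Postn and Pdgfra were at or below 0.604 FPKM in all 4 libraries. Pdgfrb stood at 22.9 to 24.7 FPKM in all 4, did not follow Col1a1, and is part of each sum. The control DL1 library therefore held the most of these transcripts, and their part in the control pair's differences was not tested. In the knockout pair the 2 sums differed little.

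Interferon-response genes were the list with the highest median in the knockout pair. Of 12 considered, of 15 listed, 10 were higher on DL4 in both pairs and 0 lower (30.5% and 16.4% of all genes), with medians of 0.58 and 0.45. Isg15, a ubiquitin-like protein induced by type I interferon, was 21.5 FPKM on DL4 and 9.02 on DL1 in the knockout pair and 17.1 and 11.6 in the control pair (1.17 and 0.52). Irgm1, an immunity-related GTPase, was 31.0 and 18.8 FPKM, then 16.6 and 10.8 (0.69 and 0.58). Irf7, which drives type I interferon genes, differed by 1.45 in the knockout pair and by 0.09 in the control pair. None reached 2-fold in both, none was called (lowest limma adjusted p in the list 0.763, for Isg15), and in the standard IL-7 libraries the median of the list was -0.04.

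**Figure D5:**
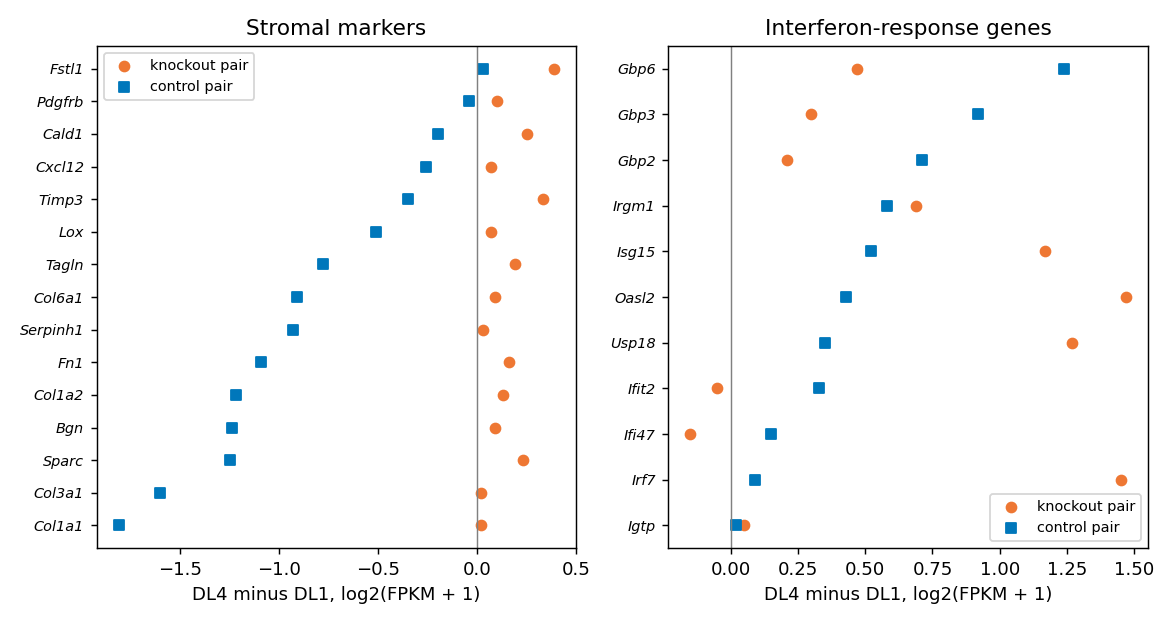
DL4 minus DL1 on log2(FPKM + 1) (x) for the 15 stromal markers (left) and 11 of the 12 interferon-response genes (right) considered, circles for the knockout pair and squares for the control pair. Stromal markers lie below 0 in the control pair down to -1.81 for Col1a1 and between 0.02 and 0.39 in the knockout pair, with Fstl1 alone above 0 in both; interferon genes lie above 0 except Ifit2 and Ifi47 in the knockout pair.

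T-lineage and progenitor genes showed no shared direction. Of 20 T-cell receptor genes 8 were higher and 3 lower in both pairs, with medians of 0.02 and 0.25. Cd3e was 41.3 FPKM on DL4 and 39.7 on DL1 in the knockout pair and 155.7 and 154 in the control pair (0.06 and 0.01), so it was nearly equal between stromas within each pair; between the pairs genotype, stage and date change together. At standard IL-7 the knockout DL4 libraries held 13.7 to 56.2 FPKM of Cd3e and the knockout DL1 libraries 0.1 to 9.40, with a stroma difference over both genotypes of 2.11 that was not called (limma adjusted p = 0.16). Cd2, an adhesion receptor, differed by 0.40 and 0.72 and Themis, a T-cell signalling adaptor, by 0.23 and 0.46. Of 17 progenitor genes 6 were higher and 3 lower in both, with medians of 0.04 and 0.06. Spi1, which encodes PU.1, was 20.0 and 17.2 FPKM, then 4.53 and 4.92, and Kit was 83.6 and 93.8, then 20.7 and 14.3. Of 16 innate lymphoid genes considered 3 were higher and 4 lower in both, with medians of -0.05 and 0.05. Zbtb16, which encodes the innate regulator PLZF, was 78.0 and 83.1 FPKM in the knockout pair and 1.51 and 0.446 in the control pair. Id2, an E-protein antagonist, was 101.5 and 103 FPKM, then 18.6 and 17.8. Tyrobp, a signalling adaptor of innate receptors, was 270.1 and 294 FPKM in the knockout pair, and in the control pair it stood at the floor on DL4 and at 11.3 FPKM on DL1. Of 5 Id and E-protein genes 1, Tcf12 (0.28 and 0.56), was higher in both.

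Markers of other blood lineages gave no shared direction either. Of 9 myeloid genes considered 3 were higher and 2 lower in both pairs. Of 4 erythroid and megakaryocyte genes 1 was lower in both, Hbb-b2 (193 and 246.8 FPKM, then 89.5 and 140.8), whose reads near-identical globin genes can share. Of 4 gamma-delta genes 1 was higher in both, and of 8 double-positive genes 2 were, among them Ccr9. The single mast cell gene considered, Cpa3 (487 and 564 FPKM, then 117 and 105), and the 3 B-cell genes considered had none in 1 direction in both. Of 5 sex-linked genes 3 were higher in both and 0 lower; Xist was 186 and 136 FPKM, then 79.6 and 61.6, and Eif2s3y, on the Y chromosome, 11.2 and 13.1, then 14.6 and 8.46.

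Among lists of cell state, proliferation genes were mostly slightly higher on DL4. Of 18 cell-cycle genes 12 were higher and 1 lower in both (30.5% and 16.4% of all genes), with medians of 0.13 and 0.23; Mki67, the Ki-67 antigen, was 80.0 and 68.3 FPKM, then 62.4 and 41.0, and Ccnb1, cyclin B1, was 85.0 and 71.8, then 81.9 and 47.9. Of 11 chemokine and receptor genes 6 were higher and 1 lower in both, with medians of 0.25 and 0.14. Cxcr4, the receptor for the stromal chemokine CXCL12, was 129.6 and 124 FPKM, then 109 and 56.05 (0.07 and 0.94). Of 16 sterol synthesis genes 6 were higher and 2 lower in both. Of 11 IL-7 response genes 3 were higher and 3 lower in both; Il7r, the IL-7 receptor alpha chain, was 52.2 and 79.3 FPKM in the knockout pair and 22.2 and 17.7 in the control pair. Of 12 p53 and apoptosis genes 3 were higher and 1 lower in both. None of these lists had a member called in the paired fit or 2-fold apart in both pairs.

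In 2 lists every gene considered was higher on DL4 in the knockout pair, while the control pair was split. All 13 glycolysis and hypoxia genes were higher on DL4 in the knockout pair (median 0.46) and 7 of 13 in the control pair (median 0.02). Pkm (Pkm2 in the table), pyruvate kinase, was 1248 FPKM on DL4 and 834 on DL1 in the knockout pair and 968 and 1513 in the control pair. Aldoa, aldolase, was 730.5 and 478 FPKM in the knockout pair, then 441 and 710.1 in the control pair, so that each pair had its own direction. All 10 immediate early and stress genes considered were higher on DL4 in the knockout pair (median 0.42) and 5 of 10 in the control pair (median 0.02). Fos was 29.2 and 8.16 FPKM in the knockout pair, then 11.3 and 12.6 in the control pair (1.72 and -0.15), and Egr1 was 8.96 and 3.73, then 11.5 and 11.7 (1.08 and -0.03). In the limma stroma by genotype fit over 25 libraries, 0 of 12668 genes were called (0.0%), with 287 at an unadjusted p under 0.05. That fit also draws on genotype gaps from title dates with a single stroma, so it is no test of these 2 lists' split between the pairs.

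The date-adjusted fit placed the 4 libraries among all 25 fetal liver libraries with Cre retrovirus, with title date, genotype and IL-7 as covariates. Stroma varies within a title date only in the 6 libraries of the 2 dates that used both stromas. Genotypes were uneven between the stromas on those dates, so the stroma term also depends on a genotype term fitted over all 25 libraries. It called 1 gene of 12668, Gm5900, higher on DL4 (0.00789%; difference 1.96, limma adjusted p = 0.0044), and 0 lower; 412 genes had an unadjusted p under 0.05. The fit reuses the 4 paired libraries and is no independent check of them. All 12 of the higher genes named above had a positive difference in it, from 0.42 for Sik1 to 1.5 for Hist1h2an. Of the 12 lower genes 11 had a negative one, down to -2.83 for Myl10, with -0.23 for Lars2, and Dok3 turned to 0.55. Other named genes moved away from their paired mean, with Nrarp at -0.67, Cd3e at 0.89 and Zbtb16 at 2.07. None of these was called (limma adjusted p of 0.818 to 0.933).

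The 18 libraries with standard IL-7 are separate cultures. Of 12674 genes tested, 24 were higher on DL4 (0.189%) and 87 lower (0.686%), with stroma and title year not separable. Of the 26 genes that agreed at 2-fold in the pairs, 22 were tested there, 12 had the same sign and 3 were called with that sign: Myl10 and the pseudogenes Gm9835 and Gm12715. Cd4, Cd8a and Cd8b1, the coreceptor genes of the double-positive list, were called lower on DL4 in these libraries (-1.19, -1.30 and -1.40; limma adjusted p from 0.000332 to 0.00274). In the knockout pair they differed by 0.03, 0.02 and 0.00, and both libraries of the control pair are listed at the floor of 0.1 FPKM for all 3, so that pair gives no direction for them.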

How the data were processed

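RNA-seq expression was read from 1 table of FPKM values that the authors deposited, adjusted with ComBat per the file name; reads were aligned to mm9, per the submitters' processing notes. The sources used here name no aligner, quantification tool or ComBat batches, so the adjustment could have moved differences either way. Per the labels' protocols, poly(A) RNA was selected on oligo-dT beads and primed at random, with no step that marks strand, so overlapping antisense genes cannot be told apart. Columns were matched to samples by description number; 16 further value columns, with no sample of that number, were left aside. The table held 17754 genes, 92 symbols named more than 1 entry, and 16481 Ensembl identifiers had a class in GENCODE M21. Groups came from titles and characteristics. The labels do not say how many embryos a library came from or whether the cultures of a pair shared embryos.

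All values were analysed as log2(FPKM + 1), keeping genes with a mean of at least 1 FPKM over the fitted libraries. Within a pair DL4 minus DL1 has no test. The fits used limma 3.58.1 in R 4.3.3 with a variance trend, Benjamini-Hochberg adjustment over all genes, and calls at an adjusted p under 0.05, and the scripts were tested on simulated data. The pairing comes from the labels, which give each pair 1 title date, genotype and IL-7 regime, so pair was a block. The standard IL-7 fit had genotype as covariate. The 4 libraries and the gene lists were chosen with earlier results of these data known. Named genes were 18 fixed ones, the 12 higher and 12 lower in both pairs by the smaller difference (mean of at least 5 FPKM; no predicted genes, pseudogenes, small RNAs or receptor segments), members of each list and 6 genes of opposite sign; other genes, among them Fbp1, Nr4a2, Nr4a3, Gm5900, Isg15, Fos, Cxcr4 and the list members given beside them, were named after their values were seen. Alternatives were a pseudocount of 0.1, no filter, a mean of at least 5 FPKM, quantile normalization, other fold thresholds, fits without blocks or trend, and libraries left out. Promoter sequences are from RefSeq (GRCm38.p6) and were matched by symbol. A few genes among the list members counted are not reported here by name.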

Additional observations from a re-analysis of the deposited data

Results flagged for a closer look

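Among the named genes, 7 were at least 1.5-fold apart in both pairs with opposite signs, and they are listed for that reason. Hist1h4n, a histone gene with near-identical copies, differed by -1.76 in the knockout pair and 0.97 in the control pair. Mmp11, a matrix metalloproteinase, differed by -0.74 and 2.06. Pld3, a lysosomal exonuclease, differed by 0.91 and -0.95, and Lmna, which encodes A-type lamins, by 1.01 and -0.87. 4632428N05Rik, which encodes the checkpoint ligand VISTA, differed by 0.72 and -0.95, and the zinc-finger gene Zfp579 by 0.70 and -1.25. Aldoa, aldolase, differed by 0.61 and -0.69. In the 2 pairs the difference between pairs could not be tested, and the stroma by genotype fit over 25 libraries called none of the 7 (limma adjusted p = 1 for each). That fit also draws on genotype gaps from title dates with a single stroma, so it does not test the opposite directions of these 2 pairs.

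In groups of 6 or 7 standard IL-7 libraries, 14 sets of values of Myl10, Fbp1, the ligands and the Nr4a genes were searched for a library that stood apart, and 4 were found, where chance gives about 1 in 20. The sets share libraries and are not independent, and an excess over that rate was not tested. The lowest control DL1 library for Fbp1 held 1.97 FPKM. Among knockout DL1 libraries the highest for Dll1 held 11.7 FPKM, the lowest for Dll4 held 0.219 FPKM and the lowest for Nr4a1 held 0.174 FPKM.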

How the results depend on the processing

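Counts of agreeing genes depended on how low values were scaled: with a pseudocount of 0.1 there were 56 higher and 18 lower, with a mean of at least 5 FPKM 11 and 3, at 1.5-fold 92 and 43, and at 3-fold 8 and 0. The paired fit called 0 higher with a pseudocount of 0.1, without a filter or with no replicate block (the pair), and 67 higher and 27 lower at a mean of at least 5 FPKM, where limma took 1 common spread for all genes; Myl10, Dhrs3, Nr4a1, Ccr9 and Hist1h2an passed there and in no other setting of the paired fit. The date-adjusted fit called 0 higher with a pseudocount of 0.1, at a mean of at least 5 FPKM and in the 6 libraries alone, and 2 higher and 30 lower with no replicate block (title date); leaving out 1 library gave 0 to 4 higher and 0 to 2 lower, with 0 higher without knockout DL4 replicate 2. The interaction gave 0 to 5 higher and 0 to 1 lower on leaving out 1 library, 5 without knockout DL1 replicate 1 or control DL4 replicate 1. The standard IL-7 fit called 56 higher and 181 lower without a filter, 8 and 28 at a mean of at least 5 FPKM, and 9 to 23 higher and 65 to 84 lower without 1 DL4 library. The cause of these shifts was not tested. Over 49 named genes, 3 mean differences near 0 reversed with quantile normalization, Nrarp (-0.02), Spi1 (-0.03) and Id2 (-0.05), and 95 of the 98 values under that scaling or a pseudocount of 0.1, the settings that can move a mean difference, kept their sign and stayed uncalled; filters, trend and block leave the mean as it is. Taking 1 pair alone, which leaves no test, reversed the sign of the mean for 14 of the 49: Dll1 (-2.71 to 0.34), Hes1 (-0.11 to 0.21), Il2ra (-0.24 to 0.43), Kit (-0.17 to 0.50), Spi1 (-0.10 to 0.21), Zbtb16 (-0.09 to 0.79), Id2 (-0.02 to 0.06), Il7r (-0.59 to 0.31), Hist1h4n (-1.76 to 0.97), Pld3 (-0.95 to 0.91), Lmna (-0.87 to 1.01), Mmp11 (-0.74 to 2.06), 4632428N05Rik (-0.95 to 0.72) and Zfp579 (-1.25 to 0.70). Adding the third knockout DL4 library, an alternative chosen after seeing the data, took the genes with every DL4 value above every DL1 value from 279 to 148, and below from 119 to 54. Depth is unknown and limits low genes such as Fbp1 and Nr4a3.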
